A study of Mus musculus with 12 samples.

Results

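Endothelial transcripts were examined in RNA from purified mouse brain myelin at 4 ages. The 10 genes were chosen by symbol as markers of the brain endothelium: Cldn5, Cdh5, Pecam1, Flt1, Kdr, Tek, Slco1c1, Slco1a4, Abcb1a and Vwf. All 10 were found among the 21937 genes of the deposited table, and none was at 0 in any library. Myelin was purified as a light-weight membrane fraction from brains of male wild-type c57Bl6/N mice that were 18 or 75 days (P18, P75) or 6 or 24 months old. Each age has 3 libraries, which makes 12 in all. The ages share strain, sex and preparation, and no treatment was applied. Library numbers in the column names run in blocks by age, with those of 6 and 24 months adjoining. What these numbers stand for is not given. Any difference in the handling of these blocks cannot be told apart from age. The 6-month libraries come from 3 individual brains, while for the other ages the labels only number the replicates, so the p-values measure the spread between these libraries. The libraries held 20299052 to 27214385 reads on genes. The 10 endothelial genes took 964 to 2271 of these reads, with 19 to 1183 reads per gene and library.

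Endothelial cells line the vessels of the brain and form the blood-brain barrier. Claudin-5 and VE-cadherin seal and hold the contacts between them, receptor tyrosine kinases for VEGF and the angiopoietins control growth and quiescence of the vessels, and transporters of the organic anion and ABC families move hormones and drugs across the cell. Von Willebrand factor is stored in endothelial granules and in platelets, and binds platelets at a wound. Endothelial cells are no part of the myelin sheath, and the purified fraction holds RNA of other cell types as well. In such a bulk sample, a larger amount of vascular material and more RNA per endothelial cell cannot be told apart.

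The endothelial genes were low compared with the markers of the tissue. Levels of different genes were compared as normalized read count per kb of merged exons (all annotated exons of a gene joined, GENCODE vM1 on NCBIM37, which is mm9). The median level of the 10 genes was 13.1 per kb, close to that of 15 pericyte and smooth muscle markers at 14.2. The median was 96.1 for 10 fibroblast and meningeal markers, 39.3 for 9 of the choroid plexus and 2.69 for 9 of blood cells and platelets. It was 4630 for 13 oligodendrocyte and myelin markers, 1753 for 15 neuronal, 1394 for 12 astrocytic and 197 for 15 microglial markers, and 66.5 for all genes above 0 in at least 1 library. All 13 myelin markers averaged 100 or more, with Mbp the highest, and the labelled tissue is thus seen in its own markers.

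Among the 10 genes the level per kb spanned a 70.1-fold range. Slco1c1, which carries thyroxine across the barrier, was highest with 246 ± 77.8 per kb (SD over 12 libraries), followed by Cldn5 with 109 ± 19.4 and Slco1a4, an organic anion transporter, with 55.7 ± 14.8. Abcb1a, the drug efflux pump P-glycoprotein, had 18.6 ± 4.06, Cdh5 (VE-cadherin) had 14.8 ± 4.04 and Pecam1 (CD31, an adhesion molecule at cell contacts) had 11.5 ± 2.55. Tek, the angiopoietin receptor Tie2, had 8.55 ± 1.37, Kdr (VEGF receptor-2) had 6.19 ± 2.74, Vwf had 5.21 ± 3.04 and Flt1 (VEGF receptor-1) had 3.51 ± 1.43. The 3 leading genes kept their places in nearly every library: Slco1c1 was above Cldn5 in 11 of 12 libraries, and Cldn5 above Slco1a4 and Slco1a4 above Abcb1a in 12 of 12. Lower in the list neighbours crossed more often, with Tek above Kdr in 8, Kdr above Vwf in 7 and Vwf above Flt1 in 8 of 12 libraries. Slco1c1 is also made by astrocytes and by the choroid plexus, so its RNA need not come from vessels.

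**Figure D1:**
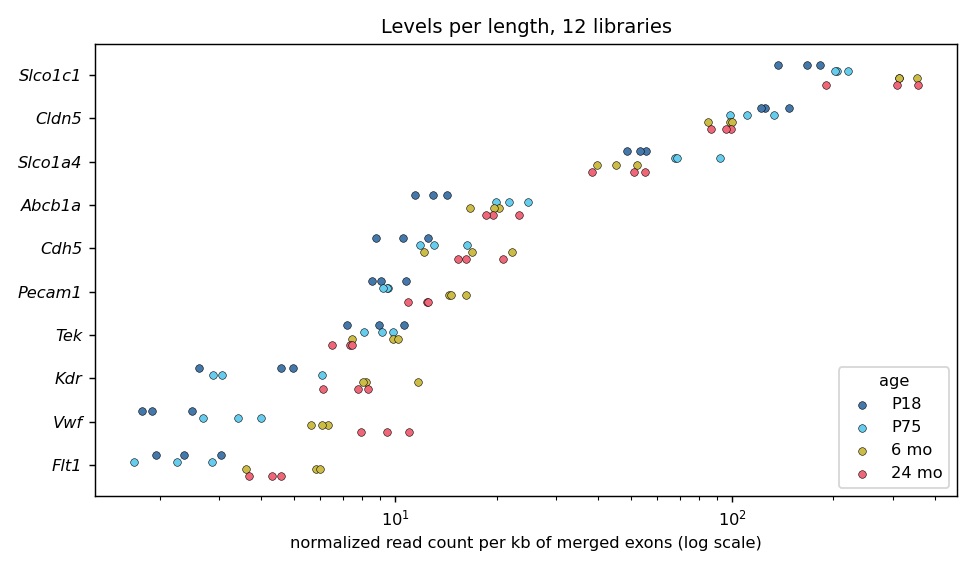
Level of each endothelial gene per kb of merged exons on a log scale, 1 point per library, colored by age. The genes run from Flt1 at 3.51 to Slco1c1 at 246 per kb on average, and the points of Vwf, Kdr and Flt1 are spread widest relative to their level.

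Each gene was placed on NCBIM37. Cldn5, with a single exon, occupies bases 18776940 to 18778353 of chromosome 16 (plus strand). Cdh5 lies on chromosome 8 from 106625525 to 106668402 (plus strand, 12 merged exons), and Pecam1 on chromosome 11 from 106515531 to 106611942 (minus strand, 17 merged exons), where a U3 small nucleolar RNA gene lies within its span on the other strand and outside its exons. Chromosome 5 holds Flt1 (148373180 to 148537587, 33 merged exons) and Kdr (76328852 to 76374483, 29 merged exons), both on the minus strand. Abcb1a is on the plus strand of the same chromosome from 8660077 to 8748575, with 28 merged exons. Tek lies on chromosome 4 from 94405980 to 94541667 (plus strand, 23 merged exons). Slco1c1 and Slco1a4 are near each other on chromosome 6, from 141472907 to 141518241 on the plus strand (15 merged exons) and from 141753961 to 141804720 on the minus strand (17 merged exons). Vwf is on that chromosome too, from 125496792 to 125636697 (plus strand, 56 merged exons). Apart from the U3 gene, no annotated gene overlapped any of the 10. Near copies of 2 of them exist: Abcb1b beside Abcb1a, and Slco1a5 and Slco1a6 beside Slco1a4, and reads could be shared between such copies in the counting.

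Promoter sequences from RefSeq (build GRCm38.p6, 250 bases before to 50 after the start) were matched by symbol for 7 of the 10 genes. Transcripts of the VEGF receptors Flt1 and Kdr and of Slco1c1 rose from P75 to 6 months, while those of its family member Slco1a4 fell. Shown are the promoters of these genes in that order. They lie at chr5:147725962-147726261 (minus strand), chr5:75978406-75978705 (minus), chr6:141524104-141524403 (plus) and chr6:141856171-141856470 (minus). Capitals mark the letters AGGAAG or their reverse complement CTTCCT, which hold the core bound by ETS factors.
Flt1: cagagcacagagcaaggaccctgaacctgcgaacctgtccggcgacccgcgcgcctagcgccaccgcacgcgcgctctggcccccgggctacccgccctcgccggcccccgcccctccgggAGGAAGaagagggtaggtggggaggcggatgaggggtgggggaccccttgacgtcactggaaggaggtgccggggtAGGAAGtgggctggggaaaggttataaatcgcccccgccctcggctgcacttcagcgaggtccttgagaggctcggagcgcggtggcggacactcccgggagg
Kdr: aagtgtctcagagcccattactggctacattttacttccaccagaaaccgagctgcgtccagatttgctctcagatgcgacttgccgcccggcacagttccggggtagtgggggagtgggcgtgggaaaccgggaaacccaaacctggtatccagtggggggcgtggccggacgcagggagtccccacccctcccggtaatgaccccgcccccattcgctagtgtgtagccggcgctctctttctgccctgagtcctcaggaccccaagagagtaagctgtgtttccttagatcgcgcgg
Slco1c1: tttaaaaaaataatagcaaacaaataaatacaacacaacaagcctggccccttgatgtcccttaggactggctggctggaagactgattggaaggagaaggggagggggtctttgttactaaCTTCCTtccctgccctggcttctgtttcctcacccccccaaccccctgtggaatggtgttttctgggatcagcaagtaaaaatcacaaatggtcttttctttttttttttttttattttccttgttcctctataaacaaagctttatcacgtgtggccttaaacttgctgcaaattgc
Slco1a4: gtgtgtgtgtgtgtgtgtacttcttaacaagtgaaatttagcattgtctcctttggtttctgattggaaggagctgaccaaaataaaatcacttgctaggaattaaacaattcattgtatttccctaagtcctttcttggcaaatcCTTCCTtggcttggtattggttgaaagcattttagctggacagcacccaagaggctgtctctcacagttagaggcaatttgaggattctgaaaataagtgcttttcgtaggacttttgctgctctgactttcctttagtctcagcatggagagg

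Flt1 held the ETS letters at -129 and -53 from the start site and the TATA box letters TATAAA at -31, whereas Kdr held none of the 4 motifs searched. The promoters of the VEGF receptors were rich in G and C, with 70.7% and 60.7%, against 42.0% for Slco1c1, 40.7% for Slco1a4 and a median of 52.7% for all 32851 promoters. Slco1c1 held the ETS letters at -128, and Slco1a4 at -104. Over the 7 promoters, AGGAAG was found on either strand in 4 (Flt1, Slco1c1, Slco1a4 and Abcb1a), against 35.4% of all promoters. The forkhead letters TGTTTA were found in 3 (Slco1c1, Slco1a4 and Abcb1a; 13.4% of all promoters), the SOX letters AACAAT in 2 (Slco1a4 and Tek; 10.7%), and TATAAA in 2 (Flt1 and Slco1c1; 13.6%). In Slco1c1 the TATAAA and forkhead letters overlap, and in Slco1a4 the forkhead and SOX letters do. The matches describe the letters of the window and no binding.

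With age, 9 of the 10 genes changed, Tek being the exception. The comparison used limma on the log2 of the normalized read count plus 1, fitted to the 12 libraries together, and the p-values of 14634 genes averaging 10 or more were adjusted together. Adjusted p-values under 0.1 were taken as a change. By the F test over the 4 ages 83.8% of all genes were called, so 9 of 10 is near the share of the background. The adjusted p for Tek was 0.313 (limma F test with Benjamini-Hochberg adjustment). With quantile normalization Tek was called (limma adjusted p 0.0454) and Cdh5 was not (0.196). In the steps between ages, 4 of the 10 genes rose and 0 fell from P18 to P75, where 25.9% of all genes rose and 22.9% fell. From P75 to 6 months 5 rose and 1 fell, beside 31.2% and 29.4% of all genes. From 6 to 24 months 1 rose and 0 fell, beside 16.6% and 12.7%. Over the whole span from P18 to 24 months 7 rose and 1 fell, beside 34.7% and 34.3%. The median log2 change of the 10 genes was 0.20, 0.46 and -0.12 in the 3 steps and 0.68 over the whole span, against 0.02, 0.01, 0.03 and -0.01 for all genes tested. Counted by libraries that do not overlap, the later age was higher for 4 genes and lower for 0 in the first step (25.1% and 22.6% of all genes), 5 and 1 in the second (32.1% and 30.9%), 1 and 1 in the last (23.2% and 20.3%), and 7 and 1 over the whole span (33.3% each way). Neighbouring comparisons share the libraries of an age, and the steps are therefore not independent. The genes did not move as one group, and each is described by its role.

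**Figure D2:**
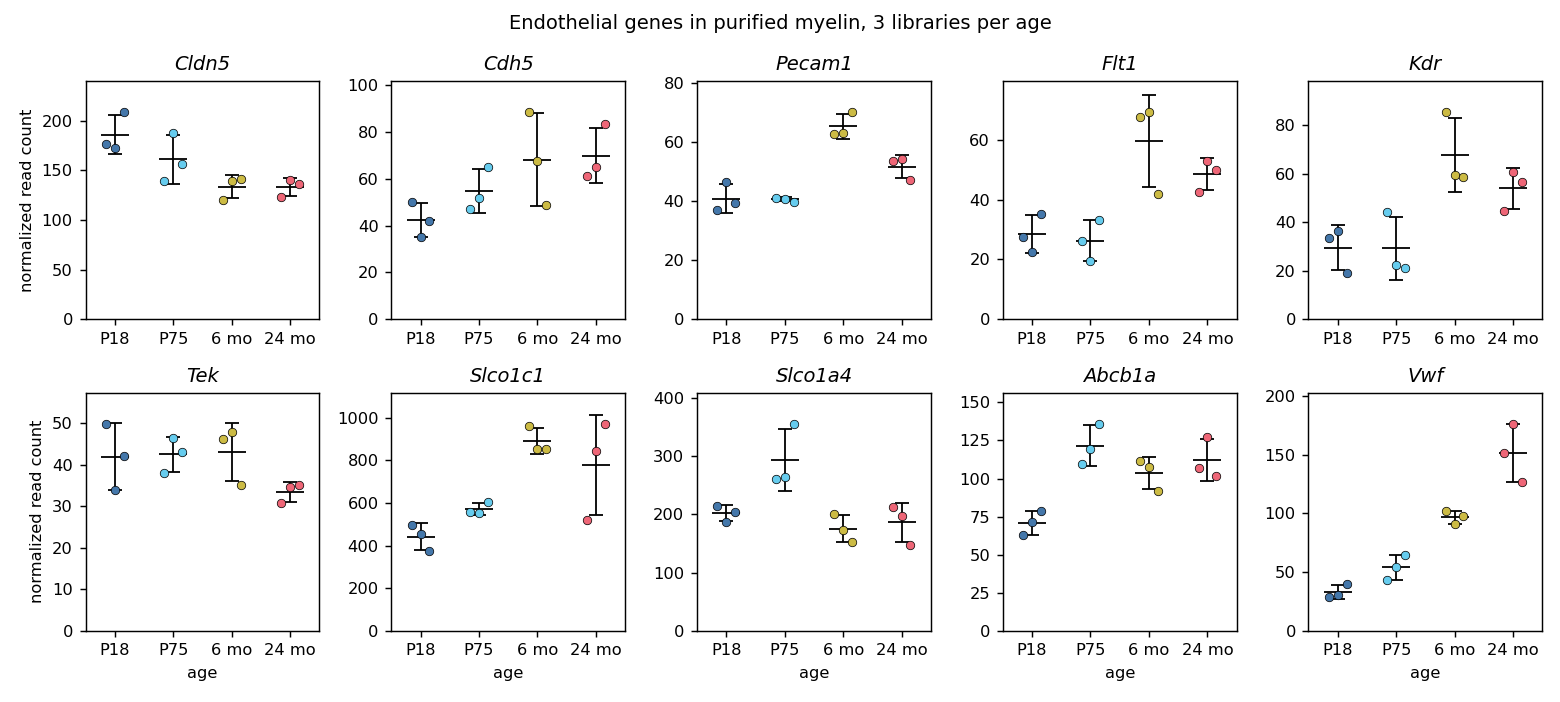
Normalized read count of each endothelial gene at P18, P75, 6 months and 24 months, with 1 point per library, the mean (line) and the SD (bars, n = 3). Vwf climbs from a mean of 33.1 to 152, Cldn5 declines from 186 to 133, Slco1a4 peaks at P75 with 294, and Flt1 and Kdr are low at P18 and P75 and higher at 6 and 24 months.

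Cldn5, the main claudin of the endothelial tight junction, declined with age. Its normalized read counts were 177, 173 and 209 in the P18 libraries, 139, 188 and 157 in those of P75, 120, 139 and 141 in those of 6 months and 122.8, 141 and 136 in those of 24 months. The 24-month libraries were all below those of P18, while neighbouring ages overlapped. From P18 to 24 months it fell by 0.48 on the log2 scale (standard error 0.14, limma adjusted p 0.0057), from 186 ± 19.7 to 133 ± 9.21 (SD, n = 3). No single step of this decline passed the test, with log2 changes of -0.21, -0.26 and -0.003 and adjusted p of 0.229, 0.111 and 0.991 from limma. For the step from P75 to 6 months, a fit with the replicate number as a block gave an adjusted p of 0.0981 (limma). Leaving out P75 replicate 1 gave 0.0479 and leaving out P18 replicate 3 gave 0.0897 there, and leaving out P75 replicate 2 gave 0.088 for the step from P18 to P75 (limma).

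Cdh5, the cadherin of endothelial adherens junctions, took the opposite course to Cldn5. It had 49.9, 35.0 and 42.2 in the P18 libraries, 47.1, 51.9 and 65.2 in those of P75, 88.6, 67.5 and 48.7 in those of 6 months and 61.4, 64.9 and 83.3 in those of 24 months. All 24-month libraries were above all P18 libraries, and the 6-month libraries were the most scattered. The log2 change from P18 to 24 months was 0.71 (standard error 0.22, limma adjusted p 0.0105), and no step passed the test, with adjusted p of 0.205, 0.293 and 0.877 (limma). Without 6-month replicate 3, the lowest of its age, the step from P75 to 6 months had a log2 change of 0.50 and an adjusted p of 0.0754 (limma). Without P18 replicate 2 the F test over the ages gave an adjusted p of 0.119 (limma).

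Pecam1 was highest at 6 months, with means of 40.8 and 40.6 in the young animals. Its values were 36.8, 46.3 and 39.2 in the P18 libraries, 41.1, 40.8 and 39.8 in those of P75, 62.6, 63.0 and 70.1 in those of 6 months and 53.5, 54.1 and 47.2 in those of 24 months. The 6-month libraries lay above all others. From P75 to 6 months the log2 change was 0.67 (standard error 0.16, limma adjusted p 0.0026), a 1.59-fold rise. From 6 to 24 months all libraries were lower (log2 change -0.33), which did not pass the test (limma adjusted p 0.157). With quantile normalization this fall was called (limma adjusted p 0.0586). From P18 to 24 months the change of 0.34 was called at an adjusted p of 0.0827 (limma), although its 95% interval, from -0.01 to 0.68, includes 0. The call was lost when any of 5 libraries was left out, with adjusted p of 0.226 without P18 replicate 1, 0.157 without P18 replicate 3, 0.101 without 6-month replicate 2, 0.162 without 24-month replicate 1 and 0.19 without 24-month replicate 2 (limma). It was lost as well with DESeq2 (adjusted p 0.201), with limma on only those ages (0.144) and with limma and no filter on low values (0.126).

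The VEGF receptors rose together from P75 to 6 months. Flt1, which binds VEGF tightly with little kinase activity and also exists as a soluble decoy, had 27.3, 22.6 and 35.2 in the P18 libraries, 26.1, 19.5 and 33.2 in those of P75, 67.4, 69.2 and 41.8 in those of 6 months and 42.6, 53.0 and 49.99 in those of 24 months. Kdr, the main signaling receptor for VEGF-A, had 33.3, 36.2 and 19.1 in the P18 libraries, 44.1, 22.2 and 21.0 in those of P75, 85.3, 59.5 and 58.4 in those of 6 months and 44.6, 60.5 and 56.5 in those of 24 months. For both genes, every library of 6 or 24 months was above every library of P18 and P75. From P75 to 6 months Flt1 rose 2.22-fold (1.148 ± 0.25 on the log2 scale, ± being the standard error of the fit, limma adjusted p 0.0011) and Kdr rose 2.38-fold (1.25 ± 0.29 on the log2 scale, limma adjusted p 0.0018). Between P18 and P75 neither passed the test (log2 changes -0.12 and -0.05), nor between 6 and 24 months (-0.26 and -0.31). From P18 to 24 months the log2 changes were 0.77 and 0.89, with adjusted p of 0.0127 and 0.0138 (limma). These values rest on 20 to 83 reads of Flt1 and 19 to 105 reads of Kdr per library. The coefficient of variation within an age was 22.2% and 30.4%, where counting error alone gives 16.8% and 16.1%.

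Tek did not follow the VEGF receptors. Its values were 49.9, 33.9 and 42.2 in the P18 libraries, 38.1, 46.4 and 43.1 in those of P75, 46.3, 47.9 and 35.0 in those of 6 months and 30.7, 34.6 and 35.2 in those of 24 months. The means were 42.0, 42.5, 43.1 and 33.5, and all neighbouring ages overlapped. From P75 to 6 months the log2 change was 0.01, with a 95% interval from -0.41 to 0.43, which leaves out the changes fitted for Flt1 and Kdr in that step. From P18 to 24 months it was -0.30 (limma adjusted p 0.195), and without P18 replicate 2 it was -0.45 with an adjusted p of 0.0866 (limma). The difference between Tek and the VEGF receptors was not tested itself.

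The 3 transporters took different courses. Slco1c1 had 498, 453 and 373 in the P18 libraries, 559, 552 and 602 in those of P75, 961, 855 and 853 in those of 6 months and 518, 842 and 972 in those of 24 months. It rose 1.56-fold from P75 to 6 months (0.64 ± 0.17 on the log2 scale, limma adjusted p 0.0048), with all libraries apart. The smaller rise from P18 to P75 (log2 change 0.38, limma adjusted p 0.0838) lost its call when any of 5 libraries of these ages was left out, with adjusted p of 0.119 without P18 replicate 2, 0.232 without P18 replicate 3, and 0.132, 0.123 and 0.195 without P75 replicates 1, 2 and 3 (limma). At 24 months replicate 1 lay far below the others. The change from 6 to 24 months was -0.24 (limma adjusted p 0.329), 0.03 without that replicate, and -0.43 without 24-month replicate 3, with an adjusted p of 0.0917 (limma). Its variation within an age, 17.2%, was 4.25 times the counting error, the largest such ratio of the 10 genes.

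Slco1a4, a transporter of organic anions and steroid conjugates, was highest at P75. It had 214, 188 and 205 in the P18 libraries, 261, 264 and 356 in those of P75, 201, 174 and 153 in those of 6 months and 213, 198 and 148 in those of 24 months. Every P75 library was above every library of the other ages, which overlapped among themselves. It rose 1.44-fold from P18 to P75 (0.52 ± 0.16 on the log2 scale, limma adjusted p 0.0131) and from P75 to 6 months fell by 0.73 on the log2 scale (standard error 0.16, limma adjusted p 0.00096). The level at 24 months did not differ detectably from that at P18 (log2 change -0.13, 95% interval from -0.46 to 0.20). Slco1c1, of the same family, thus rose in the step in which Slco1a4 fell. The near copies Slco1a5 and Slco1a6 had means of 7.77 and 0.666 over the 12 libraries and were not tested.

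Abcb1a reached its level by P75. It had 63.0, 71.2 and 78.3 in the P18 libraries, 109, 120 and 136 in those of P75, 111, 107 and 91.5 in those of 6 months and 107, 128 and 102 in those of 24 months. Every later library was above those of P18, and the 3 later ages overlapped. From P18 to P75 it rose 1.71-fold (0.77 ± 0.15 on the log2 scale, limma adjusted p 0.00066), and the later steps of -0.23 and 0.11 did not pass the test. Its near copy Abcb1b also rose in the first step, from 74.2 ± 14.3 to 120 ± 16.7 (0.69 on the log2 scale, limma adjusted p 0.0079), stood at 119 ± 6.63 at 6 months, and rose again to 227 ± 63.2 (0.88 on the log2 scale, limma adjusted p 0.006).

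Vwf rose in each of the 3 steps. Its values were 28.5, 30.5 and 40.2 in the P18 libraries, 43.1, 54.7 and 64.1 in those of P75, 102, 90.5 and 97.3 in those of 6 months and 152, 176 and 127 in those of 24 months. No library of one age overlapped with those of another. The log2 changes were 0.69, 0.84 and 0.64 (standard error 0.19 each) with adjusted p of 0.0072, 0.0012 and 0.0262 (limma), and the last was lost without 24-month replicate 2 (log2 change 0.52, limma adjusted p 0.121). Over the whole span it rose 4.49-fold (log2 change 2.17, limma adjusted p 4.69e-08), the largest change of the 10 genes. It was also the only one of them called from 6 to 24 months. Platelets and their precursors hold Vwf as well. Of the platelet genes listed, Ppbp and Gp9 had means of 2.90 and 9.28 over the 12 libraries. Pf4 had 35.1 ± 9.66 at P18, 42.3 ± 12.6 at P75, 27.2 ± 6.02 at 6 months and 30.3 ± 2.95 in the oldest libraries, and Itga2b had 28.2 ± 7.82, 46.9 ± 6.99, 26.8 ± 2.16 and 40.1 ± 2.14. Itga2b rose in the first step, fell in the second and rose in the last (limma adjusted p 0.0116, 0.0059 and 0.0701), and Pf4 fell from P75 to 6 months (0.0726). The part of platelets in the rise of Vwf was not tested.

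**Figure D3:**
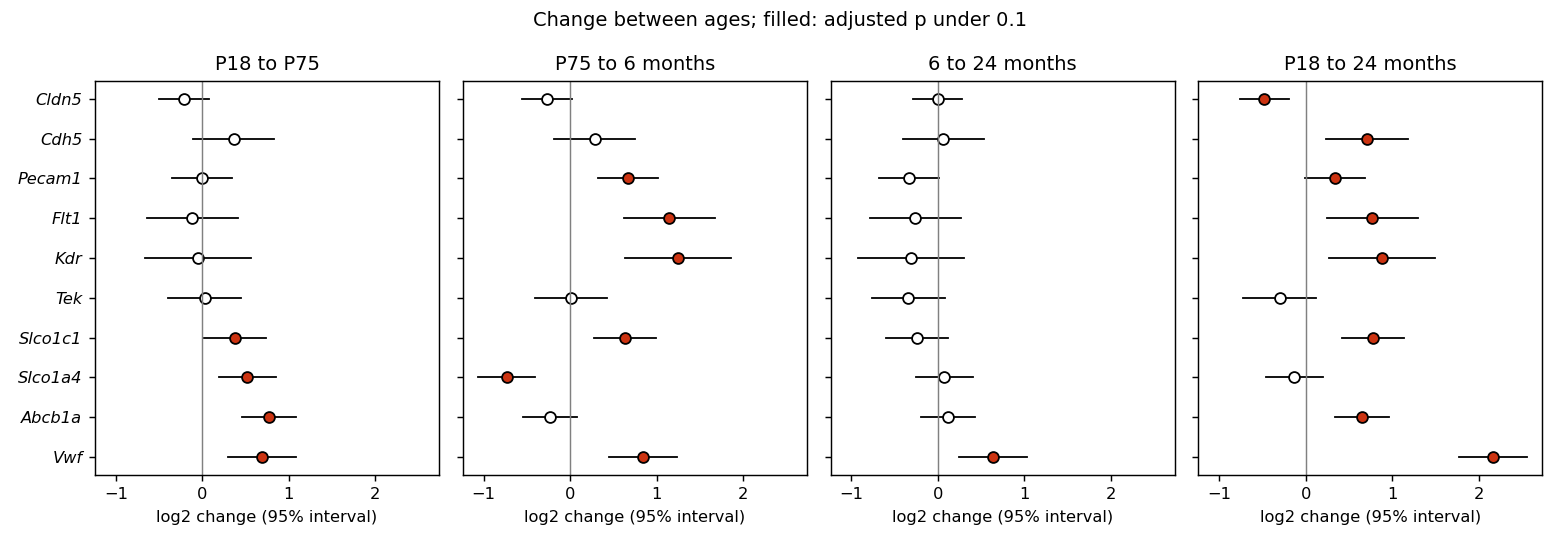
Log2 change of each endothelial gene in the 3 steps and over the whole span, with the 95% interval from limma. Filled points had an adjusted p under 0.1: 4 genes in the first step, 6 in the second, Vwf alone in the third, and 8 over the whole span.

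Ratios of endothelial genes within a library do not depend on how the libraries were scaled. The 4 pairs given here were chosen after the values were seen and are a description without a test. For each read of Cldn5 there were 0.161 to 0.192 reads of Vwf at P18, 0.291 to 0.409 at P75, 0.65 to 0.845 at 6 months and 0.932 to 1.25 at 24 months, with no overlap between ages. The reads of Kdr per read of Tek were 0.452 to 1.07 at P18 and 0.48 to 1.16 at P75, against 1.24 to 1.84 at 6 months and 1.45 to 1.75 at 24 months. Those of Flt1 per read of Tek were 0.548 to 0.833 and 0.42 to 0.769, against 1.19 to 1.46 and 1.39 to 1.53. Slco1c1 had 1.82 to 2.42 reads per read of Slco1a4 at P18 and 1.69 to 2.15 at P75. At 6 months it had 4.79 to 5.59, and at 24 months the libraries ran from 2.43 to 6.56.

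**Figure D4:**
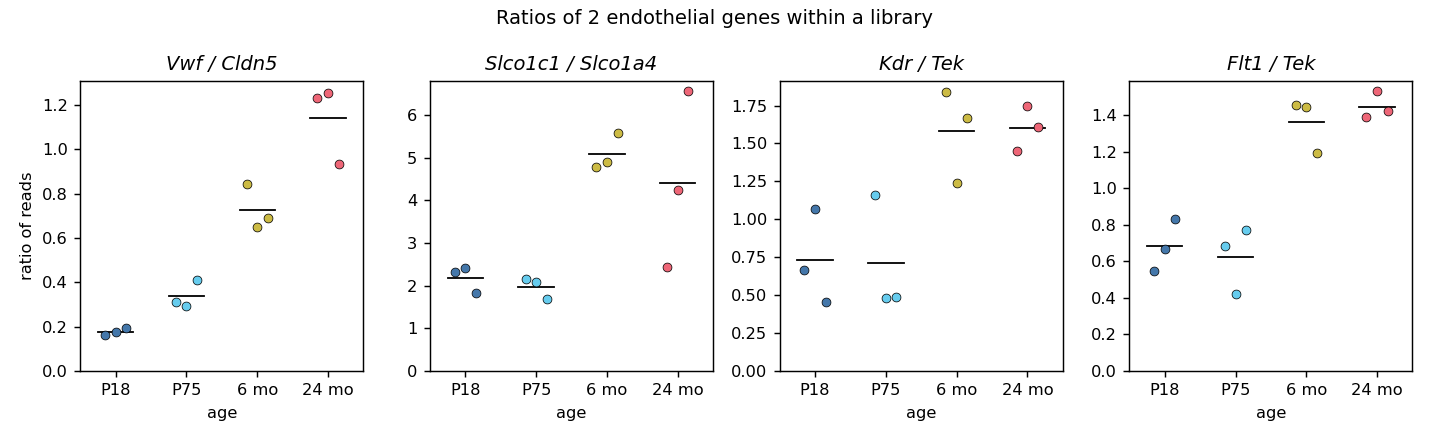
Ratio of the reads of 1 endothelial gene to another within each library, with 1 point per library and the mean of each age as a line. Vwf against Cldn5 climbs at every age, from a mean of 0.177 to 1.14, and the ratios of Kdr and Flt1 to Tek lie apart between P75 and 6 months.

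Across the 12 libraries the 10 genes were only loosely alike. Of 45 pairs, 26 had a Pearson's r above 0 on the log2 scale, with a median of 0.26 and a range from -0.84 (Cldn5 and Kdr) to 0.80 (Kdr and Slco1c1). The libraries share ages and scaling, so r describes these profiles. After the mean of each age was subtracted, the median of the pairs was 0.08. Flt1 and Kdr had an r of 0.72 before this subtraction and -0.09 after it. The mean standardized profile of the other 9 genes was followed most closely by Cdh5 (r = 0.83), Slco1c1 (0.80) and Flt1 (0.72), while Cldn5 ran against it (-0.78) and Slco1a4 (-0.33) and Tek (-0.05) had r below 0. Within ages, after subtraction of the age means, Abcb1a had the highest r (0.76) and Slco1c1 had 0.13. There Pecam1 (-0.52), Kdr (-0.34) and Cldn5 (-0.08) had r below 0. With each library scaled to the same total, r was -0.48 for Cldn5 and 0.26 for Tek. Among 11301 other genes with a mean of at least 100, those most like the mean profile of the 10 were Tax1bp1 (r = 0.94), Xpr1 (0.94), Kcna6 (0.93), Igfbp5 (0.93), Cdc5l (0.92), Oat (0.92), Lta4h (0.92) and Zfp110 (0.91). Of these, Igfbp5, a binding protein of insulin-like growth factors, had means of 1609, 2460, 3453 and 2786 at the 4 ages in turn.

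Other genes of the endothelium were counted from 5 lists, and many of their members are expressed by other brain cells too. Levels of these genes are the mean ± SD of the 3 libraries of an age. Among all genes tested 25.9% rose and 22.9% fell from P18 to P75, 31.2% and 29.4% in the second step, 16.6% and 12.7% in the last, and 34.7% and 34.3% over the whole span, with a median log2 change of -0.01 over the span. Of 25 barrier transporters, 22 were tested. From P18 to P75 12 rose and 0 fell, in the second step 12 rose and 3 fell, and in the last 7 rose and 0 fell. Their median log2 change over the whole span was 0.71, with 19 that rose and 1 that fell. Slc22a8, the organic anion transporter OAT3, climbed from 117 ± 24.9 in the P18 libraries to 379 ± 52.8 in the oldest (1.70 on the log2 scale, limma adjusted p 9.4e-07). Bsg (basigin), the most abundant gene of the list, rose in every step, from 6340 ± 867 to 13154 ± 1199. Mfsd2a, which carries lipids and restrains transcytosis in barrier endothelium, was the gene that fell over the whole span, from 829 ± 103 to 630 ± 91.2. It was lowest at 6 months with 420 ± 8.49, after 727 ± 138 at P75 (-0.77 on the log2 scale, limma adjusted p 0.00022). From 6 to 24 months Mfsd2a rose again (0.57 on the log2 scale, limma adjusted p 0.0105), and its P18 and 24-month libraries overlapped.

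All 24 genes of the list of VEGF, angiopoietin and TGF-beta ligands and receptors were tested. In the 3 steps 10, 9 and 5 rose and 2, 6 and 2 fell. Of all genes 25.9%, 31.2% and 16.6% rose and 22.9%, 29.4% and 12.7% fell in these steps. The counts of the second and of the last step are near these shares. Over the whole span 14 rose and 4 fell, beside 34.7% and 34.3% of all genes, with a median log2 change of 0.42. S1pr1 and Ednrb, receptors for sphingosine 1-phosphate and endothelins that astrocytes express too, were the most abundant with means of 3852 and 1734. Tgfbr2, a TGF-beta receptor, rose in each step, from 129 ± 17.1 to 397 ± 15.96. Bmpr2, a receptor for bone morphogenetic proteins, rose most between P75 (40.7 ± 12.7) and 6 months (143 ± 34.9, 1.81 on the log2 scale, limma adjusted p 1.3e-05). It then fell to 87.6 ± 9.62 at 24 months. Pgf, a ligand of Flt1, fell from P75 to 6 months, from 124 ± 22.7 to 81.1 ± 10.97. Vegfb, another ligand of Flt1, fell in the same step from 1866 ± 45.3 to 1454 ± 230, and had 1785 ± 36.6 at 24 months. The mean of Vegfa (VEGF-A) went the other way, from 902 ± 165 at P75 to 1067 ± 92.9 at 6 months, with overlapping libraries. The relatives of Tek and of the VEGF receptors were low: Tie1 had 33.0 ± 0.915 at P18 and 22.5 ± 2.72 in the oldest libraries (-0.54 on the log2 scale, limma adjusted p 0.025), and Flt4 (VEGF receptor-3) had a mean of 18.4 over the 12 libraries and no called change.

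In the list of endothelial transcription factors and Wnt targets more genes fell than rose in each comparison. Of 25 genes 24 were tested. From P18 to P75 0 rose and 7 fell, in the next step 6 rose and 9 fell, and in the last 1 rose and 7 fell. Over the whole span 4 rose and 13 fell. Of all genes 22.9%, 29.4%, 12.7% and 34.3% fell in these comparisons, and 25.9%, 31.2%, 16.6% and 34.7% rose. The 6 and 9 of the second step are near the shares of all genes. The median log2 change was -0.26, -0.20 and 0.05 in the 3 steps and -0.38 over the whole span. Mef2c, a factor also made by neurons and microglia, was the most abundant with a mean of 5789. Epas1, the hypoxia-inducible factor HIF-2 alpha, declined from 2653 ± 200 to 1577 ± 142 (-0.75 on the log2 scale, limma adjusted p 2.2e-06), and Klf2, a factor induced by blood flow, from 124 ± 41.9 to 63.5 ± 3.09. Apcdd1, a Wnt target, had 84.2 ± 6.25 at P18 and rose from 48.6 ± 10.8 at P75 to 142 ± 11.4 at 6 months. It then fell to 95.4 ± 3.23 at 24 months. Erg, a defining ETS factor of endothelium, had a mean of 6.74 and was not tested.

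Of 23 other junction and adhesion genes 20 were tested. In the 3 steps 7, 11 and 3 rose and 3, 0 and 2 fell. Of all genes 25.9%, 31.2% and 16.6% rose and 22.9%, 29.4% and 12.7% fell in these steps. The 3 and 2 of the last step are near these shares, and the 7 and 3 of the first step are not far from them. Over the whole span 12 rose and 3 fell, beside 34.7% and 34.3% of all genes, with a median log2 change of 0.60. Ctnnb1 (beta-catenin), with a mean of 18709, and Tjp1 (ZO-1), with 2444, were the most abundant, and both are made by most cells. Ocln (occludin), a partner of claudin-5 in the tight junction, climbed from 85.0 ± 19.2 at P75 to 145 ± 22.4 at 6 months (0.78 on the log2 scale, limma adjusted p 0.0016). Jam2, a junctional adhesion molecule, rose between P18 (93.6 ± 14.7) and 24 months (228 ± 4.69). Of 32 other endothelial markers 30 were tested, of which 9, 11 and 8 rose and 5, 5 and 0 fell in the 3 steps (all genes: 25.9%, 31.2% and 16.6% rose, 22.9%, 29.4% and 12.7% fell), and 15 rose and 3 fell over the whole span, with a median of 0.38. The most abundant were Sparc, a matrix protein, with a mean of 16046 and Ly6e with 2160. Thbd (thrombomodulin), an anticoagulant receptor on the endothelial surface, had 81.7 ± 9.02 at P18 and 310 ± 76.7 in the oldest libraries (1.89 on the log2 scale, limma adjusted p 8.5e-08). Ly6c1, a surface marker of brain endothelium, fell from 163 ± 30.8 at P75 to 79.0 ± 4.56 at 6 months and then rose to 121 ± 24.3. Ctla2a took the same turns, from 122 ± 20.6 to 64.7 ± 9.01 and 161 ± 18.4.

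Markers of other cells moved with age as well. For the summed normalized read counts of each list, the lowest and highest library of an age are given. The 10 endothelial genes summed to 1083 to 1178 at P18, 1308 to 1518 at P75, 1590 to 1845 at 6 months and 1345 to 1757 at 24 months. Without Slco1c1, the most abundant, the other 9 summed to 636 to 710, 749 to 915, 737 to 884 and 785 to 909, so that the ages after P18 overlapped. All 15 pericyte and smooth muscle markers had a mean of at least 10, and their sum was 1124 to 1236, 1445 to 1534, 1892 to 2151 and 1709 to 2140. Without the most abundant of them, Vtn, it was 769 to 947, 914 to 964, 885 to 1100 and 885 to 989. All 9 choroid plexus markers were above 10, and without Ttr, the most abundant, they summed to 532 to 700, 950 to 993, 1403 to 1594 and 1609 to 1746. The 12 astrocytic markers, all above 100, summed to 115969 to 138205, 128443 to 130612, 125221 to 141003 and 122511 to 134098. Without Aldoc their sum was 71940 to 94244, 84255 to 90275, 97756 to 111228 and 91990 to 104531, with the 6-month libraries above those of P75. Aldoc itself fell in that step, from a mean of 41165 to 29082 (limma adjusted p 0.0021). Of the 12 markers 4 rose and 2 fell there, beside 31.2% and 29.4% of all genes. All 10 fibroblast and meningeal markers were above 10, and without Ptgds they summed to 2373 to 3002, 2721 to 3463, 4976 to 5227 and 5287 to 6075. The microglial sum was 8318 to 9654, 12654 to 14141, 14476 to 16475 and 22729 to 28487, and the neuronal sum was 205481 to 252145, 234032 to 263169, 230102 to 239245 and 210315 to 220228. Without Snap25 the neuronal sum was 106360 to 132253, 93228 to 112995, 140672 to 152187 and 118287 to 130144, and it too was higher in every 6-month library than in those of P75. The sum of the oligodendrocyte and myelin markers without Mbp was 410612 to 754573 at P18, and 324591 to 428255, 380213 to 555514 and 399532 to 483235 at the later ages. Of 10 blood cell genes, 9 were listed and 3 had a mean of at least 10. The hemoglobin genes Hba-a1, Hba-a2, Hbb-b1 and Hbb-b2 were listed at 0 in every library, and as near-identical copies they are uncertain. Alas2, of red cell precursors, had 416 ± 55.1 at P18 and 36.0 ± 3.31 at 24 months. The part of these cells in the changes of the endothelial genes was not tested.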

How the data were processed

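RNA of myelin was sequenced in 12 libraries (4 ages, 3 each), grouped and numbered by their labels. The deposited signal is a normalized read count per gene: the authors mapped to mm9 with TopHat, HTSeq (0.5.4p1 in the submitters' processing notes) assigned reads to genes, and DESeq scaled each library by its size factor, with no correction for gene length. The annotation, the strand setting and the treatment of multiply mapped reads are not given in the sources used here. All values (100%) were whole multiples of the value of 1 read within 0.1 reads, so reads were recovered.

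Genes with a mean of at least 10 (14634) were fitted with limma 3.58.1 (R 4.3.3) on log2(normalized read count + 1) with age as the design, trend and Benjamini-Hochberg adjustment over all of them, at a false discovery rate of 0.1. With 3 against 3, an exact permutation test cannot go below 0.1. Intervals are at 95%. The fit was run on simulated counts in which every gene had the same dispersion. The genes of these data differ in their spread, so that run does not measure the error of the calls made here. Alternatives included edgeR 4.0.16 and DESeq2 1.42.0 on the recovered reads, other scalings, filters and pseudocounts, and leaving out each library. On the recovered reads edgeR called 12294 genes changed with age, against 12267 with limma. Profiles, lengths and ratios were computed with Python 3.11.15, pandas 2.3.3 and numpy 2.4.6. Of the table's symbols, 96.3% were found in GENCODE vM1.

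The 10 genes and the lists were chosen with earlier results of these data known. Genes were named from among the 2 most abundant of each endothelial list, the 2 largest called rises and falls of each comparison (mean of at least 100 at 1 age), the most abundant gene of each other list, the relatives Abcb1b, Slco1a5, Slco1a6, Flt4 and Tie1 whatever their level, and the 8 genes most like the mean profile. Not every such gene is printed. Erg, Vegfa, Ppbp, Gp9, Pf4, Itga2b and the hemoglobin genes are outside this rule and were named after their values were seen.

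Deviations from the age means of libraries with the same replicate number had correlations of 0.161, 0.101 and 0.187 between P75 and 6 months, over 0.1 in each pair, so for that step the fit with the replicate number as a block is given beside the result whose call it changes. The counts and other p-values come from the fit without it. The labels name no shared batch or litter. For the other comparisons the correlations ran from -0.213 to 0.0286.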

Additional observations from a re-analysis of the deposited data

How the results depend on the processing

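Of 520 values of single genes recomputed under other settings, 492 kept their direction and call, as did 560 of 600 with 1 library left out. Requiring a mean over 100 left only 4 of the 10 genes to test, of which 4 changed with age, 1 rose from P75 to 6 months, 0 from 6 to 24 months and 2 from P18 to 24 months. The count that fell from P75 to 6 months was 2 in place of 1 with the replicate block, with quantile normalization, with edgeR, and with the block and only those ages (added after seeing the data, Cldn5 adjusted p 0.0694 from limma). The block also ended the rise of Slco1c1 from P18 to P75 and of Pecam1 from P18 to 24 months (adjusted p 0.103 and 0.107, limma), where the numbers do not pair the libraries. Quantile normalization gave counts that fell of 1, 1 and 2 from P18 to P75, 6 to 24 months and P18 to 24 months. The added falls were those of Cldn5 in the first (limma adjusted p 0.0938), Pecam1 in the second (-0.46, limma adjusted p 0.0586) and Tek in the third (-0.59, limma adjusted p 0.0165). This scaling ended the rise of Cdh5 and Pecam1 from P18 to 24 months (adjusted p 0.105 and 0.82, limma). The rise of Slco1c1 from P18 to P75 was lost with it (0.107, limma) and with no filter on low values (0.112, limma). Without division by length, the highest gene was 16.6 times the lowest.

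Changes that turned sign were called with neither sign, except that of Slco1c1 from 6 to 24 months, which was called at -0.427 without 24-month replicate 3 (adjusted p 0.0917, limma). With the same total per library, which moves the median of all genes from P18 to P75 to 0.14, Pecam1, Flt1 and Kdr had log2 changes of 0.12, 0.0022 and 0.072 in that step. Quantile normalization gave Tek -0.062 and -0.052 in the first and second step and Cdh5 -0.055 in the last. Cldn5 had 0.012 with edgeR and 0.00497 with DESeq2 in the last. The cause was not tested. Leaving out 1 library gave 8 to 9 genes changed with age. From P18 to P75 3 to 4 rose and 0 to 1 fell, from P75 to 6 months 5 to 6 rose and 1 to 2 fell, from 6 to 24 months 0 to 1 rose and 0 to 1 fell, and from P18 to 24 months 6 to 7 rose and 1 to 2 fell. Log2 changes that turned sign ranged, from P18 to P75, from -0.069 to 0.092 for Pecam1, -0.297 to 0.072 for Flt1, -0.381 to 0.136 for Kdr and -0.112 to 0.16 for Tek. Tek ranged from -0.071 to 0.149 in the next step. From 6 to 24 months the range was -0.076 to 0.054 for Cldn5, -0.157 to 0.269 for Cdh5, -0.427 to 0.026 for Slco1c1 and -0.029 to 0.231 for Slco1a4, and Slco1a4 ranged from -0.236 to 0.024 from P18 to 24 months. Over all genes, 1607 rose from 6 to 24 months at a false discovery rate of 0.05 and 1394 with the same total per library, against 2435, and 1827 fell from P18 to P75 with the same total, against 3354. The variation of Pecam1 and Tek within an age did not exceed counting error.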
